A study of Mus musculus with 16 samples.

Results

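In the striatum of vehicle-injected mice, RNA bound to the ribosomes of astrocytes (immunoprecipitate, IP) was compared with RNA of the whole tissue lysate (input). The libraries were chosen by their titles: IP and input of the vehicle mice coded 2 to 5, which makes 8 of the 16 libraries of the series. Each IP library was set against the input library of the same mouse, over all genes. The other 8 libraries come from mice given clozapine N-oxide (CNO) and were used only where the ratio of IP to input was compared between injections.

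All mice were male, wild-type C57BL/6J animals of postnatal day 63, and tissue was taken 2 h after the vehicle injection. Input is cleared lysate of the whole striatum, and IP is the fraction of that lysate precipitated through a hemagglutinin (HA) tag on ribosomes, which the submitters describe as specific for astrocytes. The labels name neither the tagged ribosomal protein, nor its promoter or vector, nor the receptor that CNO was to act on, so how widely and in which cells the tag was expressed is not known from them. The series text speaks of 4 mice, whereas the titles carry 4 mouse codes for each injection. The codes were taken as separate mice, and if any are repeat samples of 1 animal, a p-value reflects the variation of sampling and preparation alone.

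Astrocytes are glial cells that take up glutamate and potassium released by neurons, form a coupled network through gap junctions, line blood vessels with end-feet and supply neurons with metabolites. In ribosome capture, an epitope-tagged ribosomal protein is made in a chosen cell type, the tag is pulled down from lysate, and the RNA that comes with it stands for transcripts held by the ribosomes of those cells. The ratio of IP to input is therefore high for transcripts mainly held by ribosomes of the tagged cells and low for those of other cells or those not on ribosomes. Most neurons of the striatum are medium spiny neurons, and its cholinergic and other interneurons are sparse.

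Values are the authors' log2 CPM, the reads of a gene scaled to an adjusted size of its library. The adjusted size was 0.902 to 0.932 of the total reads in each IP library and at least 1.091 of them in each input library. This adjustment raises the ratio of IP to input above what scaling on total reads would give. Scaling on total reads was not tested, and the shifts given below for other scalings do not bound its effect. The libraries hold 58.3 to 59.0 M reads for IP and 37.4 to 40.3 M for input. The 10 genes with the most reads took 6.27 to 7.13% of the reads in IP and 3.34 to 3.47% in input. The gene with the most reads was Slc1a2 in each IP library, and Malat1 or Rpph1 in the input libraries. A log2 ratio is the mean over the 4 mice of the log2 CPM in IP minus that in input, with the standard error (SE) of the paired limma fit. A gene is called higher or lower where its limma p-value, adjusted over all genes tested by the Benjamini-Hochberg method, is under 0.05. As these are bulk samples, fewer cells of a type and less RNA per cell cannot be told apart.

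Of 15872 genes tested, 6343 (40.0%) were higher in IP and 6223 (39.2%) were lower. A difference of at least 2-fold was called for 2502 genes (15.8%) that were higher and 2337 genes (14.7%) that were lower. The 4 IP libraries lay above all 4 input libraries for 5503 genes (34.7%) and below all of them for 5456 (34.4%). The split between higher and lower rests on the scaling of the libraries. Upper quartile scaling moved the median ratio of all genes by -0.16, and 5195 genes were then higher and 7463 lower. Scaling on the median moved it by -0.10, with 5624 higher and 6967 lower. No call changed to a call of the opposite sign under upper quartile scaling. Of the 4839 calls of at least 2-fold, 4825 were still called with their sign, whether or not they stayed at least 2-fold. Under that scaling 2144 genes were at least 2-fold higher and 2787 at least 2-fold lower. The ratio of a gene of at least 10 CPM had a median SD of 0.11 over the mice.

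**Figure D1:**
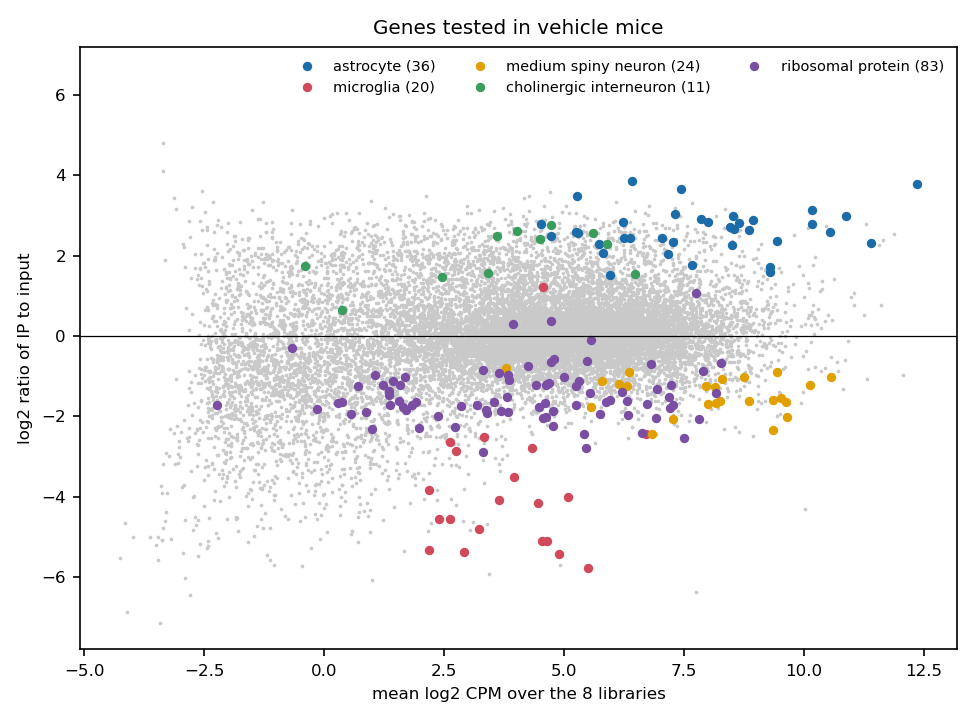
Log2 ratio of IP to input against the mean log2 CPM over the 8 vehicle libraries, 1 grey point for each of the 15872 genes tested. Astrocyte markers (36) lie above 1.5, microglial markers (20) lie below -2.4 except Sall1, and ribosomal protein genes (83) lie mostly below 0.

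Astrocyte genes were higher in IP throughout. Of 36 astrocyte markers 36 were higher, each by at least 2-fold, beside 40.0% and 15.8% of all genes tested, with a median log2 ratio of 2.61 (6.11-fold) beside 0.01 over all genes tested. Their summed level was 7801 ± 443 CPM (SD, n = 4) in input and 58260 ± 4810 CPM in IP, and for each of the 36 genes the IP libraries lay above all input libraries. At the top stood Atp1b2, a beta subunit of the sodium pump, Slc1a2, the main glutamate transporter of astrocytes, and Kcnj10, an inward rectifier potassium channel. The smallest were those of Slco1c1, a thyroid hormone carrier shared with endothelium, at 1.52, and of Ttyh1, a chloride channel family member, at 1.59.

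Atp1b2 (GRCm38, chromosome 11, 69599736 to 69605942, minus strand) stood at 4.55, 4.48, 4.57 and 4.40 log2 CPM in the input of mice 2, 3, 4 and 5 and at 8.47, 8.35, 8.40 and 8.22 in their IP. The log2 ratio was 3.86 (SE 0.04, limma adjusted p = 1.64e-10), or 14.5-fold. Slc1a2 (chromosome 2, 102658659 to 102790784, plus strand) stood at 10.56, 10.64, 10.59 and 10.10 in input and at 14.33, 14.41, 14.44 and 13.87 in IP. Both libraries of mouse 5 were the lowest of their group, and the ratio was the same as in the other mice to within 0.08, at 3.77 in mice 2, 3 and 5 and 3.85 in mouse 4. Over the 4 mice it was 3.79 (SE 0.06, limma adjusted p = 4.69e-10).

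Sox9, a transcription factor of the astrocyte lineage (chromosome 11, 112782224 to 112787760, plus strand), rose from 3.66, 3.36, 3.57 and 3.54 log2 CPM in input to 7.11, 6.93, 7.2 and 6.86 in IP. Its log2 ratio was 3.5 (SE 0.06, limma adjusted p = 5.02e-10). Kcnj10 (chromosome 1, 172341210 to 172374085, plus strand) went from 5.75, 5.61, 5.50 and 5.62 to 9.28, 9.15, 9.25 and 9.40, a log2 ratio of 3.65 (SE 0.06). Aldh1l1, a folate enzyme that marks astrocytes across the brain (chromosome 6, 90486427 to 90600203, plus strand), went from 6.38, 6.35, 6.18 and 6.70 to 9.34, 9.22, 9.27 and 9.45, a log2 ratio of 2.92 (SE 0.06). In each of these 5 genes the IP and input libraries were separated by more than 2 log2 units, and mice differed by less than 1.

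Gfap, the intermediate filament protein of astrocytes that increases when they react to injury, differed between mice in level and not in ratio. In input it was 8.64, 7.88, 8.47 and 9.45 log2 CPM in mice 2, 3, 4 and 5, and in IP 11.81, 11.03, 11.73 and 12.41. Mouse 3 was the lowest and mouse 5 the highest in both kinds of RNA. The ratios were 3.17, 3.15, 3.26 and 2.95, with a mean of 3.13 (SE 0.06, limma adjusted p = 6.77e-10). Crym, a thyroid hormone binding protein expressed by a subset of striatal astrocytes, was 7.21, 7.35, 7.22 and 6.79 in input and 8.70, 8.25, 8.63 and 8.49 in IP. Its log2 ratio of 1.38 (SE 0.12, limma adjusted p = 4.33e-05) was below that of each of the 36 markers, with 0.91 in mouse 3 and 1.70 in mouse 5.

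**Figure D2:**
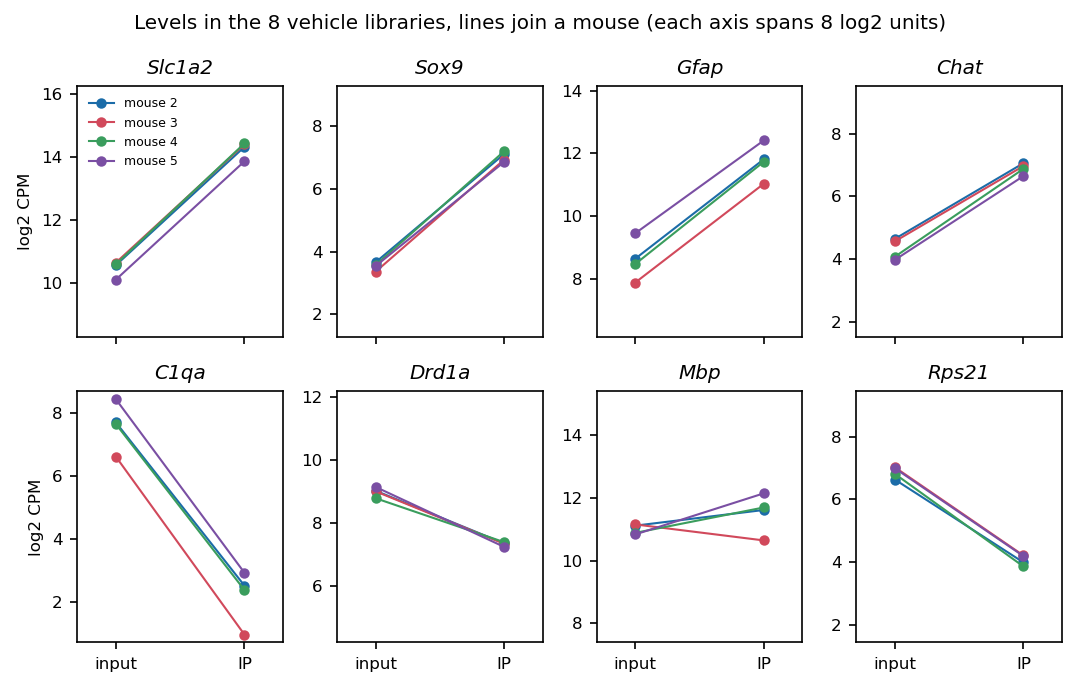
Log2 CPM of 8 genes in input and IP, with lines that join the libraries of a mouse and axes that all span 8 log2 units. Slc1a2, Sox9, Gfap and Chat rise in the 4 mice, C1qa, Drd1a and Rps21 fall in the 4 mice, and Mbp rises in mice 2, 4 and 5 and falls in mouse 3.

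Immune cell genes were depleted most among the cell type lists of more than 1 gene. Of 20 microglial markers 19 were lower in IP, beside 39.2% of all genes tested, with a median log2 ratio of -4.13 (17.6-fold lower), and each of the 19 was at least 2-fold lower. The lowest were Ctss, a lysosomal protease, at -5.79 (SE 0.06), and C1qa, a subunit of complement C1q, at -5.42 (SE 0.08). C1qa stood at 7.71, 6.62, 7.66 and 8.45 log2 CPM in input and at 2.51, 0.95, 2.37 and 2.92 in IP, with no overlap between the groups. Its input level differed by 1.83 log2 units between mice 3 and 5 and its ratio by at most 0.47. Sall1, a transcription factor used to mark microglia, went the other way: it was higher by 1.21 (SE 0.07, limma adjusted p = 2.26e-07), from 15.8 ± 2.24 CPM in input to 36.3 ± 3.0 CPM in IP.

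Markers of blood and border myeloid cells were lower in 11 of 11 tested (median log2 ratio -4.60), and those of lymphocytes and plasma cells in 12 of 12 (median -3.93). Pf4, a platelet and macrophage chemokine, had 111 reads in the 4 input libraries and 0 in IP. With a floor of 3 reads over the IP group it was at least 46.0-fold lower, and with Pf4 at that bound the median of its list was still -4.60. The next lowest myeloid marker was Ly6c2, a monocyte antigen, at -6.09 (SE 0.21), and the least depleted was Cd163, a scavenger receptor of border macrophages, at -2.69 (SE 0.22). Among lymphoid genes Igj, the joining chain of secreted antibodies, was at -5.70 (SE 0.22). Cd79b, part of the B cell receptor, had 753 reads in the 4 input libraries and 25 in IP, with 0 in the IP of mouse 3, so its fitted ratio of -5.71 depends on the prior count. Cd4, a T cell coreceptor that some neurons and microglia also express, was the least depleted at -1.75 (SE 0.08). In input the summed level of the lymphoid list ranged from 124.2 CPM in mouse 3 to 899 CPM in mouse 5, and in IP from 18.9 to 37.2 CPM.

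Medium spiny neuron genes were lower in IP, by less than immune genes. Of 24 markers 24 were lower, 21 of them by at least 2-fold, with a median log2 ratio of -1.41 (2.67-fold lower). Tac1, the precursor of substance P, was the lowest at -2.43 (SE 0.06), with 8.07, 8.04, 8.04 and 8.09 log2 CPM in input and 5.77, 5.64, 5.64 and 5.46 in IP. Drd1a, the D1 dopamine receptor, stood at 9.03, 9.01, 8.79 and 9.15 in input and 7.35, 7.34, 7.39 and 7.24 in IP, a log2 ratio of -1.66 (SE 0.08). Drd2, the D2 dopamine receptor, was at -1.19 (SE 0.08). Arpp21, a cAMP-regulated phosphoprotein, was the second lowest at -2.33, and the smallest decreases were those of Isl1, a transcription factor of the direct pathway lineage, at -0.79 and Gnal, a G protein alpha subunit coupled to dopamine receptors, at -0.90.

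Cholinergic interneuron genes were higher in IP, and GABAergic interneuron genes were so in part. Of 11 markers of cholinergic interneurons 11 were higher, with a median log2 ratio of 2.28 (4.85-fold), near that of the astrocyte markers. Chat, the enzyme that makes acetylcholine, was at 4.65, 4.57, 4.08 and 3.98 log2 CPM in input and 7.06, 6.97, 6.88 and 6.65 in IP, a log2 ratio of 2.57 (SE 0.07, limma adjusted p = 4.41e-09). Tacr1, the substance P receptor, at 2.77 and Slc17a8, the vesicular glutamate transporter of these cells, at 2.62 were the highest, and Zic4 the lowest at 0.64. The summed level of the list was 144.1 ± 25.9 CPM in input and 629.4 ± 79.3 CPM in IP. Of 15 markers of GABAergic interneurons 10 were higher and 2 lower, beside 40.0% and 39.2% of all genes tested, with a median of 0.68. Nos1, the neuronal nitric oxide synthase, was highest at 3.24 (SE 0.05), from 35.6 ± 3.32 to 335.6 ± 16.7 CPM, followed by the neuropeptide gene Npy at 1.99. The lower members were Pvalb, the calcium buffer of fast-spiking cells, at -0.86 and the transcription factor Maf at -0.95.

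Pan-neuronal and presynaptic genes were called in both directions, and postsynaptic genes were mostly lower. These counts stand beside 40.0% higher and 39.2% lower among all genes tested. Of 20 pan-neuronal markers 5 were higher and 10 lower, with a median log2 ratio of -0.12, from 1.08 for the heavy neurofilament gene Nefh to -1.03 for Rbfox3, which encodes the NeuN antigen. Of 11 markers of excitatory cortical neurons 2 were higher and 5 lower, with 1 higher without mouse 2, 3 or 5 and 2 lower without the replicate block. Fezf2, a transcription factor of deep-layer neurons, was the highest at 1.32, and Lamp5 the lowest at -1.67. Of 28 presynaptic genes 7 were higher and 13 lower (median -0.01), with 4 higher without mouse 2, without mouse 3 or under upper quartile scaling. Of 33 postsynaptic genes 5 were higher and 25 lower (median -0.46). The lowest of these were Nrgn, a dendritic calmodulin-binding protein, at -1.98 and Gabra4, a GABA-A receptor subunit of spiny neurons whose annotated exons overlap those of Gabrb1, at -1.88, and the highest was Homer3, a scaffold protein, at 2.07.

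Oligodendrocyte genes were higher in part, and their median ratio spanned 1.54 log2 units over the mice, more than that of any other list. Of 18 markers 10 were higher and 0 lower, beside 40.0% higher and 39.2% lower of all genes tested, with a median log2 ratio of 0.77. Myrf, the transcription factor that drives myelin genes, was highest at 2.18 (SE 0.23, limma adjusted p = 0.000506). Mbp, a myelin protein, stood at 11.11, 11.15, 10.88 and 10.83 log2 CPM in input and at 11.61, 10.64, 11.69 and 12.14 in IP. Its ratios were 0.50, -0.51, 0.81 and 1.31, and it did not pass the test (0.53, SE 0.31, limma adjusted p = 0.171). Without mouse 3 it did, at 0.87 (limma adjusted p = 0.000401). The median ratio of the list was 0.69 in mouse 2, -0.10 in mouse 3, 0.99 in mouse 4 and 1.44 in mouse 5. Of the 18 markers 18 had their lowest ratio in mouse 3 and 18 their highest in mouse 5.

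The difference between mice lay in IP. The summed level of the oligodendrocyte markers was 7980, 8169, 6669 and 7114 CPM in the input of mice 2, 3, 4 and 5, and 13930, 7847, 14210 and 20540 CPM in their IP. Leaving out mouse 3 made 18 of 18 markers higher, leaving out mouse 2 left 7, and leaving out mouse 4 or mouse 5 left 5. The median SD of the ratio over mice was 0.68 for these genes beside 0.08 for astrocyte markers and 0.11 for all genes of at least 10 CPM. Of the 50 genes of at least 10 CPM with the most variable ratio, 10 were oligodendrocyte markers. Of 12 markers of oligodendrocyte precursors 6 were higher and 2 lower (median 0.45), beside 40.0% higher and 39.2% lower of all genes tested. Without mouse 2 there was 1 lower. Sox10, a transcription factor shared by both stages, was highest at 1.3 and Lhfpl3 lowest at -0.78.

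Endothelial and fibroblast genes were mostly lower in IP, with exceptions, and pericyte and smooth muscle genes were called in both directions. Of 18 endothelial markers 16 were lower, with a median of -2.21, and Cldn5, a tight junction protein, was the lowest at -3.81 (SE 0.08). The members that were higher were Mfsd2a, a lipid transporter of the blood-brain barrier, at 2.01 (SE 0.06) and Slc2a1, the glucose transporter of the barrier and of glia, at 0.82. Of 14 markers of pericytes and smooth muscle 8 were lower and 4 higher (median -0.83), beside 39.2% and 40.0% of all genes tested. The higher ones were Notch3 at 3.06 (SE 0.07), the PDGF receptor gene Pdgfrb at 1.49, Mcam at 1.42 and Cspg4 at 1.08, and the lowest was Higd1b at -3.72. Without the replicate block or without mouse 2 there were 6 lower. The summed level of this list was 210.5 ± 8.13 CPM in input and 329.5 ± 18.2 CPM in IP. Notch3 stood at 11.97 ± 1.76 CPM in input and 99.6 ± 10.1 CPM in IP. Of 13 fibroblast and meningeal markers 10 were lower (median -2.77), with Dcn, a collagen-binding proteoglycan, at -4.89, and Col1a2 was higher by 0.39. Slc22a6, an organic anion transporter, had 197 reads in input and 9 in IP, with 0 in the IP of mice 2 and 5, and its fitted ratio of -5.40 depends on the prior count. The call of Col1a2 was lost under upper quartile scaling (limma adjusted p = 0.185) and without mouse 2, 3 or 4 (0.138, 0.0807 and 0.0845).

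Ependymal genes, which belong to the ciliated cells that line the ventricle beside the striatum, were higher in 14 of 14 (median 2.07). Hydin, a ciliary protein, was highest at 2.86 (SE 0.20), with 1.64 ± 0.567 CPM in input and 13.2 ± 6.35 CPM in IP, and Dynlrb2 the lowest at 1.71. Of 15 neuroblast and progenitor markers 7 were higher and 5 lower, shares near the 40.0% and 39.2% of all genes tested. Egfr, a growth factor receptor, at 2.92 (SE 0.05) and Tubb2b, a beta tubulin, at 2.74 were the highest, and Top2a, a topoisomerase of dividing cells, the lowest at -1.57. Of 9 choroid plexus markers 4 were higher and 2 lower, again beside 40.0% and 39.2% of all genes tested. Their summed level was 10.5 to 25.4 CPM in all 8 libraries. Alas2, the only erythrocyte marker tested, was lower by 3.95 on the log2 scale, at 2.45 ± 0.359 CPM in input.

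**Figure D3:**
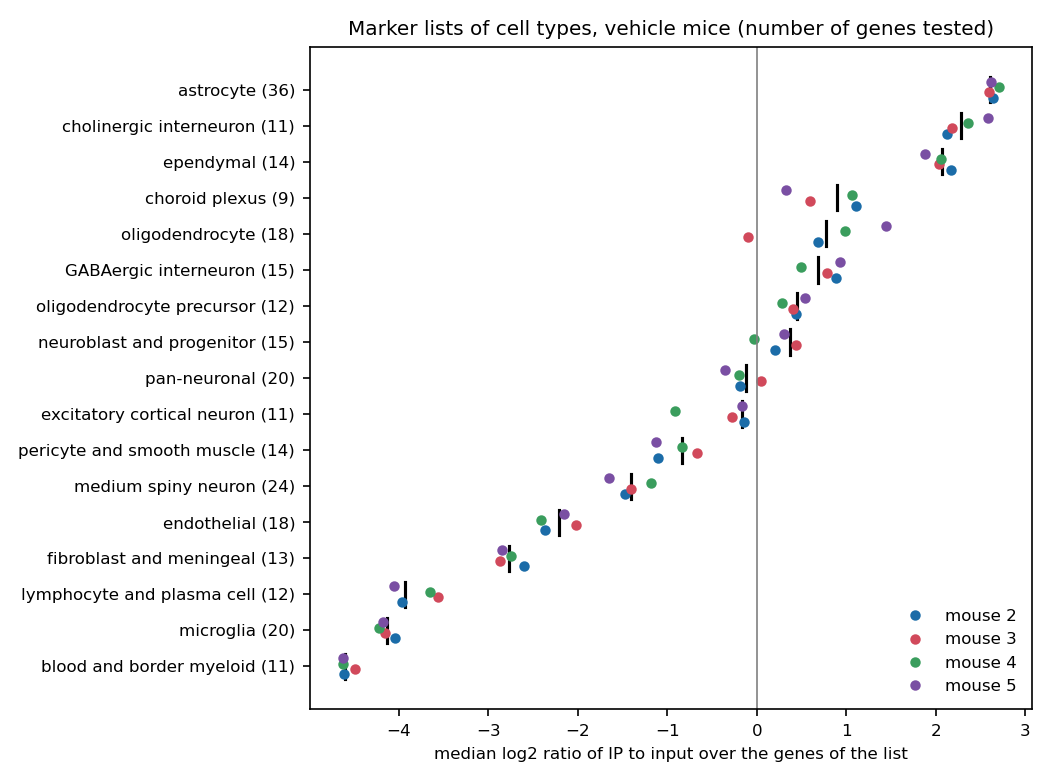
Median log2 ratio of IP to input over the genes of each cell type list, with 1 point per mouse and a black bar at the median of the fitted ratios. Astrocyte, cholinergic and ependymal lists lie above 1.8 in the 4 mice, immune lists lie below -3.5, and the oligodendrocyte list spreads from -0.10 to 1.44.

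Genes for the handling of transmitters and ions were mainly higher in IP. Of 25 genes for glutamate, GABA and glycine 17 were higher and 5 lower (median 1.65). Besides Slc1a2, the highest was Slc6a11, a GABA transporter of astrocytes, at 3.05. Among the lower members were Slc38a5, an amino acid transporter, at -2.73, the neuronal glutamate transporter gene Slc1a1 at -0.57, the mitochondrial carrier Slc25a22 at -0.33 and the aminotransferase Got2 at -0.12, whose call was lost without mouse 2, 3 or 5 (limma adjusted p = 0.214, 0.0835 and 0.126). Of 30 genes for ions, water and gap junctions 21 were higher and 7 lower (median 1.24), with 4 lower without mouse 2. Gja1, the main connexin of astrocytes, was at 2.99 and Aqp4, the water channel of end-feet, at 2.88. The lowest were Kcnj2, an inward rectifier potassium channel, at -1.40 and Kcnk2, a two-pore potassium channel, at -1.11.

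Regulators of the astrocyte lineage were higher nearly without exception. Of 40 glial transcription factors 38 were higher (median 1.86), 33 by at least 2-fold. After Sox9, the highest was Gli2, an effector of hedgehog signalling, at 3.49. Arntl, a clock factor, was lower at -0.34. Of 55 genes of Notch, BMP, hedgehog and Wnt signalling 40 were higher and 8 lower (median 1.39). The receptors Notch1, Notch2 and Notch3 were at 2.84, 2.54 and 3.06, while the ligand genes Jag1, Dll1 and Dll4 were at -0.17, -0.28 and -1.31. The call of Jag1 was lost without mouse 2, 4 or 5 (limma adjusted p = 0.0942, 0.115 and 0.187). The lowest member was Mfng, a glycosyltransferase that modifies Notch, at -2.61.

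Of 50 G protein-coupled receptors 27 were higher and 20 lower (median 0.47), the share of lower ones being near that of all genes tested. Celsr1, an adhesion receptor, was highest at 3.10, followed by Tacr1 and the endothelin receptor gene Ednra at 2.73, and the lowest were Cysltr1, a leukotriene receptor, at -2.95 and P2ry12, a microglial purine receptor whose exons overlap those of Med12l, at -2.80. Chrm4, the M4 muscarinic receptor, was at 7.89, 8.0, 7.68 and 8.32 log2 CPM in input and 9.98, 10.24, 10.02 and 10.32 in IP, a 4.49-fold higher level (limma adjusted p = 5.07e-09). The IP libraries lay above all input libraries in this gene, and mouse 5 was the highest in both. Of 47 genes of calcium and G protein signalling 20 were higher and 20 lower (median -0.09), shares near those of all genes tested. Plcd4, a phospholipase whose exons overlap those of Zfp142, was highest at 2.74 and Itpr3, an inositol trisphosphate receptor, the lowest at -1.51. Of 42 growth factor receptors and ligands 26 were higher and 8 lower (median 0.94). Fgfr3, a fibroblast growth factor receptor of astrocytes, was at 2.84, and Pdgfb and Tgfb1, ligands made by vessel and immune cells, were at -1.78 and -1.69.

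Secreted and matrix genes were higher in IP. Of 31 secreted factors that organize synapses 26 were higher and 3 lower (median 2.07). Thbs4, a thrombospondin, was highest at 3.48 (SE 0.06), from 2.66, 2.78, 2.86 and 1.84 log2 CPM in input to 6.24, 6.15, 6.27 and 5.41 in IP. The lower members were Nptx2, a neuronal pentraxin, at -0.77, Sema3a, a repulsive guidance cue, at -0.60 and Nrg2 at -0.51. Of 51 genes of matrix and adhesion 43 were higher and 6 lower (median 1.01). Ptprz1, a receptor phosphatase of glia, was at 3.16 and Tnc, a matrix glycoprotein, at 2.99. The lower members were Nlgn1, Nlgn2, Nrxn3, Negr1 and Opcml, which encode synaptic or neuronal adhesion proteins, and Nid1, a basement membrane protein, from -0.19 for Nrxn3 to -0.97 for Nlgn1. The call of Nrxn3 was lost without mouse 2 or 5 (limma adjusted p = 0.169 and 0.186) and that of Nlgn2 without mouse 2 (0.051). Of 19 genes of phagocytosis and complement 15 were higher (median 1.84), with the engulfment receptor gene Megf10 at 2.61, and Tyro3 was lower at -0.70. C3, the central complement component, was at 2.30, 2.35, 1.96 and 0.25 in mice 2, 3, 4 and 5, a mean of 1.71 (SE 0.39, limma adjusted p = 0.0113). Mouse 5 was the lowest, and without it the ratio was 2.20.

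Metabolic genes were also higher in most lists. Of 38 genes of lipids and cholesterol 34 were higher (median 1.53), with the phosphatase gene Ppap2b at 2.86 and the apolipoprotein gene Apoe at 2.53. Lower in IP were Cyp46a1, the neuronal enzyme that removes cholesterol, at -0.94 and Lpl, a lipoprotein lipase, at -1.23. Of 21 genes of fatty acid oxidation and ketone bodies 20 were higher (median 1.53), with Cpt1a, which admits fatty acids to mitochondria, at 2.72. Of 40 genes of glucose, lactate and glycogen 32 were higher and 6 lower (median 0.77). The highest were Pdk4, a kinase that inhibits pyruvate dehydrogenase, at 2.86 and Phka1, a subunit of phosphorylase kinase, at 2.68. Lower in IP were Hk2 at -1.06, Slc16a7 at -0.82, Slc16a3 at -0.80, Gapdh at -0.63, Slc2a3 at -0.51 and Eno2 at -0.36. Gapdh stood at 5.36 CPM in input and 3.47 CPM in IP, and reads it may share with near-identical copies make its value uncertain.

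Of 26 genes of serine, glycine and folate metabolism 18 were higher and 2 lower (median 1.43). Gldc, the glycine decarboxylase, was at 2.85 after Aldh1l1, and Mthfd2l was lower at -0.26, a result whose call was lost without mouse 4 (limma adjusted p = 0.0503). Of 39 genes of redox and detoxification 31 were higher and 5 lower (median 1.49). Gstm1, a glutathione transferase, was at 2.76, and the lower members were Gpx1 at -1.41, Gpx4 at -0.83, Txn1 at -0.36, Srxn1 at -0.30 and Hmox2 at -0.19.

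Pairs of related genes were compared within each mouse, since they share a library and a function. In each of 21 pairs the first member was assigned to glia and the second to neurons or other cells. No source is given here for the assignments, so the counts are a description and not a test of them. The ratio of the first lay above that of the second in 4 of 4 mice in 19 pairs. In 10 pairs the first was higher and the second lower in IP, and in 6 both were higher. The gap was widest for the glutamate transporters Slc1a2 and Slc1a1, at 4.36 log2 units (4.20 to 4.53 over mice), and for the sodium pump subunits Atp1b2 and Atp1b1, at 4.03 (3.87 to 4.11). The ratio of Atp1b1 itself was -0.17, a call that was lost without mouse 2, 4 or 5 (limma adjusted p = 0.1, 0.0732 and 0.0606). It was 3.77 for the scaffold genes Homer3 and Homer1 (3.62 to 3.92) and 2.90 for the inositol trisphosphate receptor genes Itpr2 and Itpr1 (2.69 to 3.10).

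Some pairs went the other way or did not part. Of the hexokinases Hk2 was lower at -1.06 (SE 0.10) and Hk1 higher at 1.23, a gap of -2.28 that had the same sign in the 4 mice. Pygm and Pygb, the glycogen phosphorylases first found in muscle and brain, were at 2.67 and 2.5. The enolase gene Eno1 was at 0.00, with ratios that differed in sign between mice, and Eno2 at -0.36. Eno1 stood at 1.69 CPM in input, and reads it may share with a near-identical copy in the annotation make its value uncertain.

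**Figure D4:**
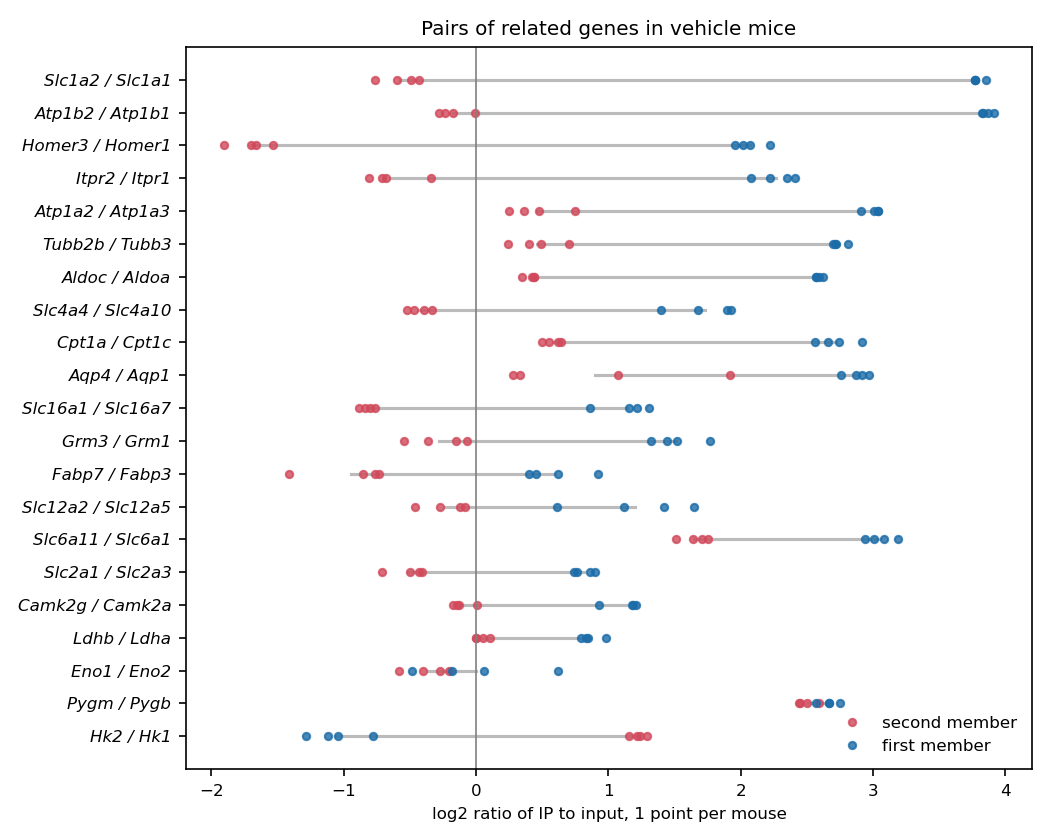
Log2 ratio of IP to input of the members of 21 gene pairs, with 1 point per mouse, the first member of the label in blue and the second in red, and a grey line between the means. The blue points lie to the right of the red ones in 19 pairs, to the left for Hk2 and Hk1, and mixed for Eno1 and Eno2.

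Genes outside the lists show what else was taken up or left behind. Ranked were called genes of at least 10 CPM in IP or input whose libraries did not overlap. Symbols of predicted gene models (Gm, Rik, LOC, AC or AL numbers) were left out. The 15 highest ran from 3.32 to 3.03. They were Igfbp5, a secreted binder of insulin-like growth factors, Pm20d1, Mcc, Tfcp2l1, Pcdhgc3, Acsf2, Cd109, Igdcc4, Fgd6, Slc7a2, Ccdc135, Dmp1, Steap3, Slc14a1 and Flnc. Igfbp5 stood at 6.12, 5.95, 6.16 and 5.80 log2 CPM in input and 9.52, 9.22, 9.55 and 9.03 in IP, a log2 ratio of 3.32 (SE 0.05, limma adjusted p = 4.69e-10). Slc7a2, a transporter of cationic amino acids, went from 35.6 to 300.0 CPM on average and Slc14a1, a urea transporter, from 13.3 to 110 CPM. The exons of Pcdhgc3, a clustered protocadherin, are shared with its cluster, so its reads may come from neighbours. The next in rank, Acot11, was at 3.02.

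By the same rule the 15 lowest ran from -4.94 to -3.72. They were Fcgr4, Cd53, Ly86, Emr1, Selplg, Cd86, Cst7, AF251705, Pld4, Srgn, Itgb2, Fcgr1, Fcer1g, Rac2 and Cd84. Fcgr4, an Fc receptor of myeloid cells, went from 11.5 CPM in input to 0.358 CPM in IP, and Cd53, a leukocyte tetraspanin, from 26.0 to 0.892 CPM. Emr1 encodes the macrophage antigen F4/80, and Itgb2 the beta integrin of leukocytes. The next in rank was Gng13, a G protein gamma subunit, at -3.67.

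Beyond cell types, classes of RNA differed. Of 83 ribosomal protein genes 78 were lower in IP and 3 higher, with a median log2 ratio of -1.64 (3.11-fold lower), and 79 were lower under upper quartile scaling. Rpl22l1, the paralog of Rpl22, was the lowest at -2.90 (SE 0.11), followed by Rps21, of the small subunit, at -2.80. Rps21 stood at 6.63, 7.02, 6.81 and 6.99 log2 CPM in input and 3.99, 4.21, 3.86 and 4.19 in IP. The higher ones were Rpl22 at 1.08 (SE 0.06, limma adjusted p = 4.15e-07), Rps27l at 0.38 and Rps4l at 0.31. Rpl22 was at 7.11, 7.19, 7.08 and 7.44 in input and 8.33, 8.37, 7.93 and 8.51 in IP, so that the groups did not overlap, and it alone of the 83 was at least 2-fold higher. Many ribosomal protein genes have near-identical pseudogenes, and how the authors' counting divided such reads is not given in the sources used here.

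Ribosomal protein transcripts are known to begin with a run of pyrimidines, the terminal oligopyrimidine element, through which their translation is held back when growth signals are low. Starts in the promoter table of RefSeq (GRCm38.p6) were found for 62 of the 83 genes, and the following show 10 bases before and 15 from the annotated start, with the run of C or T from the first transcribed base in capitals.

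Rps18 (chr17:33955651-33955675, minus strand, log2 ratio -2.01): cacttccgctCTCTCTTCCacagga

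Rpl38 (chr11:114668570-114668594, plus strand, log2 ratio -1.89): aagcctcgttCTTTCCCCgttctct

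Rps6 (chr4:86857353-86857377, minus strand, log2 ratio -0.84): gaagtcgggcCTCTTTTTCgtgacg

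Rpl15 (chr14:18270972-18270996, minus strand, log2 ratio -0.63): agaaagccttCTTCCTTTCCTCTgg

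These sequences are shown because genes with runs of 8 to 13 bases had ratios from -2.01 to -0.63. Rpl22l1 and Rpl22, at the ends of the class, had no run from the annotated first base. A run of at least 5 bases from the annotated start was found in 25.8% of the 62 ribosomal protein genes and in 5.24% of the 11706 tested genes with a start. Ribosomal protein genes with the run had a median of -1.71 and those without it -1.60. Among the other genes the medians were 0.01 with the run and 0.03 without it. Annotated starts can miss the true first base, and no match says only that no run begins at the annotated one. In Rpl22l1 and Rpl18 a run of C and T begins at the next base, and both were counted as without it. The medians with and without the run therefore do not separate genes with and without the element.

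Histone genes were lower in 55 of 65 tested and higher in 5 (median -1.69). Transcripts of replication-dependent histones end in a conserved stem-loop in place of a poly(A) tail, whereas replacement histones are polyadenylated. The stem-loop was searched as GG, any 2 bases, CTTTT, any base, AG, any 2 bases and CC, on the transcript strand of the longest GENCODE vM21 (GRCm38) transcript of each gene. It lay within 100 bases of the transcript's end in 17 of 16275 genes with a transcript (0.104%), all of them histone genes. The examples show the match in capitals with 5 bases before and 9 after it, chosen to set end-located loops of strongly and weakly depleted genes beside a loop inside a longer transcript.

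Hist1h3b (bases 554 to 569 of 620, log2 ratio -3.08): ccaaaGGCTCTTTTCAGAGCCacccacagt

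Hist1h4f (bases 343 to 358 of 391, log2 ratio -2.5): tcaaaGGCCCTTTTCAGGGCCacccacttt

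Hist1h4h (bases 409 to 424 of 470, log2 ratio -1.21): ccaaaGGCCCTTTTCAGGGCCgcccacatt

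Hist1h1c (bases 705 to 720 of 1560, log2 ratio 0.04): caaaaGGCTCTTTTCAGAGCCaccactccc

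The 16 tested genes whose stem-loop lies near the transcript's end were all lower, from -4.19 (Hist1h3c) to -1.21 (Hist1h4h), with a median of -2.21. In 20 genes the loop lies further inside an annotated transcript that runs on past it, and these had a median of -1.60 and reached 0.21 (Hist1h1e, whose exons overlap those of Hist1h2be). The 29 genes without a match had a median of -1.69, with 21 lower and 4 higher. They include genes of the Hist1 group, such as Hist1h4k at -1.69 and Hist1h1b at -2.21. They also include replacement histones, such as H2afz at -1.79, H3f3a at -0.79 and H3f3b at 0.06. No match says only that the motif was not found in the longest transcript, so this median does not stand for replacement histones. The higher members of the class were H1f0, a linker histone of non-dividing cells, at 1.03 (SE 0.05), Hist2h2be at 0.88, Hist1h2bc at 0.69, H2afy, a macroH2A, at 0.59 and Hist1h1e at 0.21. The call of Hist1h1e was lost under upper quartile scaling (limma adjusted p = 0.49) and without mouse 2 or 3 (0.0562 and 0.0642). Histone genes of a family are near-identical, and reads shared between them make single values uncertain. Libraries were made after mRNA enrichment, and the part of the poly(A) tail in these ratios was not tested.

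RNAs that are not translated were lower in IP. Of 129 tested genes of small RNAs and RNA subunits 94 were lower and 4 higher (median -1.51). Rmrp, the RNA of the mitochondrial RNA processing ribonuclease, was the lowest at -6.38 (SE 0.15), with 10.91, 10.98, 11.13 and 10.74 log2 CPM in input and 4.37, 4.34, 4.58 and 4.95 in IP. Terc, the telomerase RNA, was at -5.46 and Rpph1, the RNA of ribonuclease P, at -4.30, and small nucleolar RNAs by the annotation were lower in 37 of 40. The higher ones were entries of microRNA genes, Mir568 at 2.37, Mir6236 at 2.33, Mir1901 at 2.14 and Mir6390 at 1.76. Mir568 lies within an exon of Zbtb20, itself higher at 2.14, and Mir1901 within an exon of Cables1, so their reads cannot be told apart from those of the host. Of 22 nuclear long non-coding RNAs 19 were lower and 1, Pantr1, was higher (median -1.20), with 2 higher without mouse 3. Malat1, a nuclear RNA of all cells, was at -0.98 (SE 0.06), Meg3 at -1.17 and Snhg8 lowest at -2.88. Over the annotation, 57.6% of 557 long non-coding RNA genes were lower, beside 37.8% of 14284 protein-coding genes.

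Other classes had medians from -0.40 to 0.44. The shares called among translation factors were near those of all genes tested, which were 40.0% higher and 39.2% lower. Of 82 genes of oxidative phosphorylation 17 were higher and 49 lower (median -0.40). Cox6b2 at 2.19 and Cox4i2 at 1.89, tissue-specific subunits of cytochrome oxidase, were the highest and Atp5g2, of the ATP synthase, the lowest at -1.68. Of 77 mitochondrial ribosomal protein genes 10 were higher and 45 lower (median -0.24), and of 47 proteasome genes 15 were higher and 14 lower (median -0.01). Under upper quartile scaling 4 mitochondrial ribosomal protein genes were higher and 60 lower, and 8 proteasome genes were higher and 27 lower. The immunoproteasome genes Psmb10, Psmb8 and Psmb9 were the highest of these at 1.21, 1.18 and 1.01. Of 20 tRNA synthetases 18 were higher and 0 lower (median 0.44), with Eprs, the synthetase for glutamate and proline, highest at 1.29. Under upper quartile scaling 16 were higher and 2 lower, and without mouse 4 there was 1 lower. Of 61 translation factors 27 were higher and 25 lower (median 0.03), from Eif2ak2, a kinase that responds to double-stranded RNA, at 1.83 to Eef1b2 at -1.40. Of 35 genes for folding and secretion in the endoplasmic reticulum 20 were higher and 11 lower (median 0.24), with Dnajc3, a co-chaperone, at 1.3 and Ssr4, of the translocon, at -0.93. Of 21 motor protein genes 13 were higher and 6 lower (median 0.34), with Myo6 at 2.61 and Dynll1 at -1.40.

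**Figure D5:**
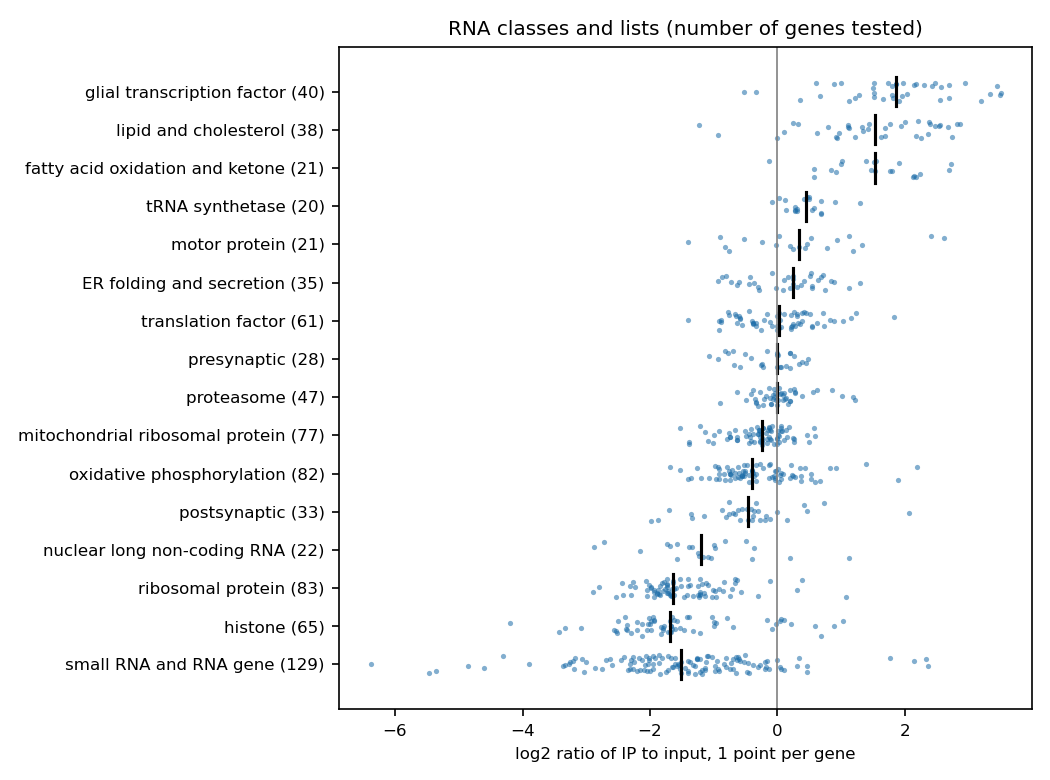
Log2 ratio of IP to input of each tested gene (1 point per gene) in classes of RNA and functional lists, with a black bar at the median. Ribosomal protein genes (83), histones (65) and small RNAs (129) lie mostly below -1, whereas genes of fatty acid oxidation (21), lipids (38) and glial transcription factors (40) lie mostly above 1.

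The ratio also moved with transcript length. Among 14284 protein-coding genes, the median log2 ratio was -0.56 for the 540 genes whose longest annotated transcript has at most 1000 bases, and 0.32 for the 865 genes above 8000 bases. It was -0.12, 0.02 and 0.12 in the classes between, with limits at 2000 and 4000 bases, and the order was the same in the 4 mice. The Spearman correlation over these genes was 0.16, a description over genes that share libraries. Genes of oxidative phosphorylation of at most 1000 bases had a median of -0.53 and the longer ones -0.05. The 35 ribosomal protein genes of at most 1000 bases were at -1.67 and the 48 longer ones at -1.52. The 36 astrocyte markers and the 23 medium spiny neuron markers with a length were all above 1000 bases, with median lengths of 3549 and 3464 bases.

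The uptake was next compared with that of the CNO mice, whose libraries are all separate from those above. The same test in the CNO mice gave ratios whose Pearson correlation with those of the vehicle mice was 0.955 over 15655 genes, a description over genes. The difference of the 2 ratios was called higher in CNO mice for 1018 of 16256 genes (6.26%) and lower for 222 (1.37%). Under upper quartile scaling these counts were 780 and 477. The count of genes lower in CNO mice was 93 without the replicate block. It was 98 without vehicle mouse 2, 149 without vehicle mouse 4, and 131, 139 and 125 without CNO mouse 3, 4 and 5.

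In 11 of the 18 cell type lists no member passed the test of the difference. None of the 18 oligodendrocyte, 24 medium spiny neuron, 11 cholinergic or 14 ependymal markers passed. Over all genes 6.26% were higher and 1.37% lower in CNO mice. At those shares lists of this size would hold few calls or none, so the lack of calls does not show equal ratios. Of 36 astrocyte markers 2 were higher and 3 lower in CNO mice. In the lists of lipids and cholesterol, 13 of 38 members had a higher ratio in CNO mice and 0 a lower ratio, and among ribosomal protein genes 16 of 83 and 0, beside 6.26% of all genes higher and 1.37% lower. A call of opposite sign with a called difference was found for 137 genes. Hk2 was lower in IP in vehicle mice and at 0.43 in CNO mice, a difference of 1.49 (SE 0.12, limma adjusted p = 6.02e-06). Hes5, a target of Notch, was at 0.67 in vehicle mice and -0.45 in CNO mice, a difference of -1.12 (SE 0.14, limma adjusted p = 0.000227). The 5 astrocyte genes described first, Atp1b2, Slc1a2, Sox9, Kcnj10 and Aldh1l1, did not pass, with differences from -0.41 to 0.11.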

How the data were processed

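Per the labels' protocols, each library took 100 ng of RNA into the Ovation RNA-Seq System V2 with mRNA enrichment, for paired-end sequencing. Per the submitters' processing notes, bcl2fastq 2.17, STAR, HTSeq, limma and the mm10 build were used; for the strand setting and the annotation of the counting no source used here gives a value. The authors deposited log2 CPM values (prior count 0.25 by their steps) for 17098 lines per library. After 1 duplicate line was dropped, 17097 genes remained, and all values gave whole reads within 0.01 read. The plan named limma for values on the log2 scale and a count test for counts. As the deposited unit is log2, limma was used.

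Here limma 3.58.1 (R 4.3.3; trend and robust settings) was fitted to the 8 vehicle libraries with the mouse as a block, and to all 16 for the difference between injections. Genes needed 15 reads in all and the CPM of 10 reads in the median library in at least 4 libraries. The procedure was tested on simulated data with few changed genes, up and down in equal number, and mouse effects shared by IP and input. That test does not cover data where most genes are called or where mice differ in IP alone. Libraries of the same mouse deviated together (correlations 0.24, 0.58, 0.22 and 0.58), so the mouse codes in the titles were taken to pair them.

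The 46 gene lists and all members were chosen with earlier results of these data known. Named were 9 genes throughout, the 2 highest and 2 lowest of a list, its members called against the majority, the 15 highest and lowest outside the lists, and both members of each pair. Acot11, Apoe, C3, Chat, Dll1, Drd1a, Drd2, Ednra, Gja1, Gng13, Hes5, Jag1, Malat1, Mbp, Meg3, Notch1, Notch2, Psmb9, Rpph1, Zbtb20 and the genes with printed sequences were added after their values were seen. Annotated exons of Acot11, Alas2, Atp1b1, Eef1b2, Gapdh, Gnal, Gng13, Hmox2, Homer3, Psmb9, Rpl15, Rpph1, Rps18 and Zic4 overlap those of another protein-coding gene, so reads may be shared. Results of some genes are not reported here.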

Additional observations from a re-analysis of the deposited data

Results flagged for a closer look

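In 19 of 254 genes and list medians examined, 1 of the 4 vehicle mice stood apart from the other 3 by Dixon's criterion, which chance meets in about 1 in 20 groups of 4. Mouse 5 stood apart in 9 genes. Its log2 ratio was -5.79 for Rmrp, 2.31 for Apoe, 2.86 for Celsr1, -3.50 for Cysltr1, -0.99 for Gapdh, 0.46 for H2afy, -0.40 for Opcml, 0.96 for Psmb8 and 2.95 for Slc17a8. Mouse 3 stood apart at -5.74 for Dcn, 1.29 for Hist2h2be and -4.49 for the median of the blood and border myeloid list. Its value of -7.66 for Cd79b rests on 0 reads in IP and is set by the prior count. Mouse 4 stood apart at 3.14 for Acot11, 3.30 for Pcdhgc3, 3.85 for Slc1a2 and 2.81 for Tubb2b, and mouse 2 at -2.22 for Cd163 and -1.06 for Malat1.

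The ratio of IP to input differed between CNO and vehicle mice, by the limma test of the difference adjusted over all genes, in 17 of 208 named genes, 13 higher and 4 lower in CNO mice, beside 6.26% of all genes higher and 1.37% lower. Hes5 and Ednra were named after their values were seen. It was higher in CNO mice by 2.19 for Srxn1, 1.49 for Hk2, 1.33 for Eprs, 0.74 for Slco1c1, 0.73 for Slc2a1, 0.67 for Slc16a3, 0.59 for Homer1 and 0.56 for Mfsd2a. It was also higher by 0.46 for Flnc, 0.46 for Rps6, 0.41 for Rps21, 0.33 for Rps18 and 0.33 for Tnc. The difference, CNO minus vehicle, was -1.12 for Hes5, -0.80 for Pdgfrb, -0.74 for Ednra and -0.37 for Pantr1.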

How the results depend on the processing

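Over 9 alternative settings and the omission of each mouse, 5195 to 6434 genes were higher and 5643 to 7463 lower. The direction of each of the 38 lists with a median of at least 0.25 in size was kept. The 2 other scalings could not have changed it, since they moved all ratios by -0.16 and -0.10, less than 0.25. Without the replicate block, which is the pairing by mouse, 5978 genes were higher and 5903 lower, and the calls of Atp1b1 (limma adjusted p = 0.109), C3 (0.0554), Col1a2 (0.0846), Hes5 (0.104), Hist1h1e (0.0573), Jag1 (0.213), Nrxn3 (0.0962), Psmb8 (0.0919), Psmb9 (0.152), Pvalb (0.0521) and Rps27l (0.0818) were lost. Of 208 named genes 193 kept their side of the threshold under all settings run, 14 lost it under at least 1 and Mbp passed it without mouse 3. None reversed. Lists whose counts moved by over 1.5 times include pan-neuronal genes (3 higher under upper quartile scaling), serine and glycine genes (5 lower under it) and small RNAs (36 lower of those with a mean of at least 1 CPM, 161 lower with no low-value filter). The 222 genes with a lower ratio in CNO mice became 93 without the replicate block and 477 under upper quartile scaling, and 98 to 187 when 1 mouse was left out. The cause was not tested. Calls on genes of few reads are limited by depth: 138 to 205 genes had 0 reads in an IP library and 61 to 101 in an input library.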
